A study of Mus musculus with 22 samples.

Results

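Starburst amacrine cells, the cholinergic interneurons of the retina, were examined in dissociated retinae of WT and AdipoR1-/- (KO) mice. They were chosen by UMI counts, as the cells with at least 1 UMI of 2 or more of Chat, Slc5a7 and Slc18a3 and with no UMI of Slc6a9 or Aqp4. This gate held 177 of the 26764 cells of the 6 droplet libraries, with 68 cells from WT and 109 from KO. Each library came from 4 pooled retinae of 1 genotype and age (P19, P25 or P30), so that each genotype had 3 libraries, 1 per age. The labels give C57BL/6J as the strain of all mice and no treatment, and the KO allele was constitutive, so every cell of a KO mouse carried it. The P30 libraries of both genotypes were sequenced as a first batch, and the P19 and P25 libraries as a second. Bulk RNA-Seq of the whole retina at P30, with 4 libraries per genotype and 22734800 to 35118200 counts per library, gave a measurement of the same transcripts that the gate did not use.

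Starburst cells release both acetylcholine and GABA and lie in paired mirror populations, an OFF population in the inner nuclear layer and an ON population displaced to the ganglion cell layer. Their dendrites provide the directional inhibition from which direction-selective ganglion cells derive their tuning. Chat encodes choline acetyltransferase, which makes acetylcholine, Slc5a7 the high-affinity choline transporter that supplies its substrate, and Slc18a3 the vesicular transporter that loads it into synaptic vesicles. Slc6a9, the glycine transporter of glycinergic amacrine cells and Muller glia, and Aqp4, the water channel of Muller glia, served to leave out other cells. Adipor1 encodes an adiponectin receptor with ceramidase activity and was examined beside the starburst genes.

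The 3 genes that chose the cells lie at only 2 places in the genome. In the GENCODE M21 annotation Slc18a3 (ENSMUSG00000100241, chr14:32462438-32464850, minus strand) lies inside the span of Chat (ENSMUSG00000021919, chr14:32408203-32465989, minus strand), and Slc5a7 (ENSMUSG00000023945, chr17:54273590-54299034, minus strand) lies on another chromosome. Since Chat and Slc18a3 overlap on the same strand, reads in the shared stretch could not be assigned with certainty. The 250 bases before the RefSeq start of each gene are shown because the gate rests on transcripts of these genes in the same cells. The RefSeq start of Chat lies inside the GENCODE span given above, so that its stretch overlaps the end of that span, and distances are counted from the RefSeq start (RefSeq, GRCm38.p6, gene strand, 5′ to 3′). Capitals mark every match, on either strand and with no overlap between matches here, to the motifs spelled out after the sequences, namely an E-box, a half-site of the cyclic AMP response element, a homeodomain site, a GC box and a TATA box. The stretches are chr14:32465910-32466159, chr14:32464851-32465100 and chr17:54299035-54299284.
Chat: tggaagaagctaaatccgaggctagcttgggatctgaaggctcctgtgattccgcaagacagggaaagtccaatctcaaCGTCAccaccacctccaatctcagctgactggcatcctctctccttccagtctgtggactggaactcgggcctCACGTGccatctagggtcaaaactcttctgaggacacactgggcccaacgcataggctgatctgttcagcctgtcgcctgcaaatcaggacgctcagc
Slc18a3: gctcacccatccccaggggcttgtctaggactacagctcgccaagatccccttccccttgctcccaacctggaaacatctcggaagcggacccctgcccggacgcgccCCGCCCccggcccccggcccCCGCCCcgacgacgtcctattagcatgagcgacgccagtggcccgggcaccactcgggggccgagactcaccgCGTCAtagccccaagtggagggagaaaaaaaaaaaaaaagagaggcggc
Slc5a7: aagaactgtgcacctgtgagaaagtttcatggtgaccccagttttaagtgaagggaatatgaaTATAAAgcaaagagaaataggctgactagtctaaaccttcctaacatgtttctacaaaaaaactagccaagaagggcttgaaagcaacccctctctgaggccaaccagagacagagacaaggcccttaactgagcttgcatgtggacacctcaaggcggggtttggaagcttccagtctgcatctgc
The stretch before Chat held the E-box CACGTG 98 bases before the RefSeq start, a motif found in 6.04% of 32536 distinct promoter stretches of this length. It also held the response element half-site TGACG, on the other strand, found in 17.9% of them. The stretch before Slc18a3, which lies inside Chat, held the GC box GGGCGG at 2 places on the other strand, a motif found in 33.0% of promoters, and the same half-site as Chat. The stretch before Slc5a7 held the TATA box TATAAA, found in 12.3% of promoters, 187 bases before the start. No motif was found in all 3 stretches, and the homeodomain site TAATTA, found in 4.84% of promoters, was in none of them.

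The label was checked against genes that the gate did not use. Isl1, a homeobox factor that starburst cells keep into adulthood, had a UMI in 172 of the 177 cells (97.2%), against 3.83% of the 3133 other GABAergic amacrine cells. Sox2, a factor that amacrine cells of this type keep after birth, had a UMI in 136 cells (76.8%), against 0.383% of the other GABAergic cells. Gad1, which makes GABA, had a UMI in 174 starburst cells (98.3%) and in 90.9% of the other GABAergic cells. The median was 8779 UMIs per starburst cell, 5872 per other GABAergic cell, 4772 per glycinergic amacrine cell and 1219 per rod. The ganglion cell genes Rbpms, Slc17a6, Pou4f1 and Pou4f2, the microglial genes C1qa, Ctss and Cx3cr1 and the horizontal cell factor Lhx1 had no UMI in any starburst cell. The other members of these lists were not at 0: 3 of 7 ganglion and 2 of 5 microglial genes had a UMI, none in over 10% of cells, and 3 of 4 horizontal cell genes had one, 1 of them in over 10% of cells, with the horizontal list at 557 to 764 CPM in every library. Of 17 starburst genes known from other work, 9 were higher than in other GABAergic cells in 6 of 6 libraries and 2 lower. The shares over all genes were 13.4% and 6.26%. RNA of other classes was also present. All 6 rod genes (list at 376 to 3739 CPM) and 3 of 6 Muller glial genes (69.5 to 546 CPM) had a UMI in over 10% of cells. Of the bipolar genes 1 of 7 did, and of the cone genes 0 of 5. Isl1, Sox2 and Gad1 did not go against the name.

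The members just inside and just outside the gate differed in these same genes, which is given as a description. Of the 128 cells with all 3 markers, 100% had an Isl1 UMI, 99.2% Gad1 and 82.8% Sox2, with a median of 9484 UMIs per cell. The 49 cells with 2 markers, of which 38 lacked only Chat, had Isl1 in 89.8%, Gad1 in 95.9% and Sox2 in 61.2%, with a median of 6078 UMIs. The 198 cells with 1 marker had Isl1 in 24.7%, Gad1 in 42.9% and Sox2 in 3.03%. The condition on Slc6a9 and Aqp4 left out 13 cells, of which 8 held Slc6a9 and 5 held Aqp4, and 12 of these 13 had Isl1. Among all libraries 49 of 26715 distinct barcodes were found in more than 1 library, and 0 gated cells carried such a barcode. Doublets were not called, and 9 gated cells either lacked Isl1 (5 cells) or held 10 or more UMIs of cone, Muller glial or bipolar genes. The 5 cells without Isl1 had no Sox2 UMI. They included WT P19 cells of 10247, 13687 and 18572 UMIs, in a WT P19 starburst sum of 246873, and the last named and the one before it held Rnd3. Except for the cell of 10247 UMIs, they held Chat and Slc18a3 but no Slc5a7, the pair with overlapping reads. In all, 7 gated cells held that pair alone. The most extreme were 1 WT P19 cell with 392 UMIs of cone genes and 1 KO P19 cell with 245 UMIs of Muller glial genes.

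The number of starburst cells recovered varied widely between libraries. The gate held 28 of 5439 cells in WT P19 (0.515%; exact binomial 95% interval 0.342% to 0.743%), 73 of 5300 in KO P19 (1.38%; 1.08% to 1.73%), 35 of 4367 in WT P25 (0.801%; 0.559% to 1.11%) and 24 of 5633 in KO P25 (0.426%; 0.273% to 0.633%). At P30 it held 5 of 2558 cells in WT (0.195%; 0.0635% to 0.456%) and 12 of 3467 in KO (0.346%; 0.179% to 0.604%). Intervals cover counting error only. As a share of all gated amacrine cells, starburst cells were 2.22% in WT and 5.40% in KO at P19, 3.01% and 2.35% at P25, and 1.47% and 3.31% at P30. The KO share was thus above WT at P19 and P30 and below it at P25. The mean log2 ratio of KO over WT was 0.70 ± 0.92 (SD, n = 3 ages) per amacrine cell and 0.44 ± 1.21 (SD, n = 3) per cell. The exact permutation test within ages, two-sided, gave p = 0.5 and p = 0.75, and 3 pairs cannot give a p below 0.25. Starburst sums held 651878 UMIs in KO P19 but only 23806 in WT P30, where 1 UMI corresponds to 42.0 CPM (UMIs scaled to a common library total), so that P30 values are the least precise.

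**Figure D1:**
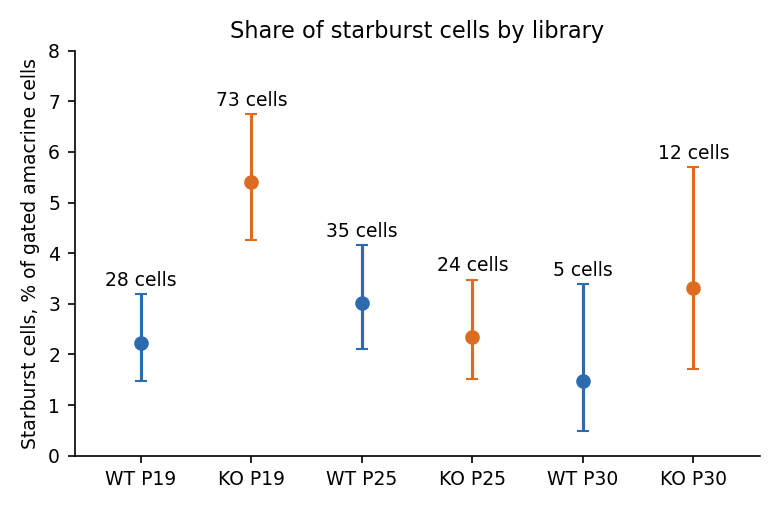
Starburst cells as a percentage of gated amacrine cells (y axis) in each library (x axis; blue WT, orange KO); points are shares, bars exact binomial 95% intervals, and numbers the starburst cells. KO P19 (5.40%) stands above WT P19 (2.22%), whereas the intervals of the P25 and of the P30 pair overlap.

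Beyond the genes of the gate, starburst cells were compared with other GABAergic amacrine cells. Of 14188 genes compared, 1898 (13.4%) were higher in starburst cells in 6 of 6 libraries and 888 (6.26%) lower. This is a description, since the gate chose the cells. Only 338 of the higher genes had 200 or more UMIs in starburst cells, while all 888 lower genes had as many in other GABAergic cells. Because 0.5 UMIs were added and 1 UMI was 42.0 CPM in WT P30, a gene at 0 UMIs there could count as higher. The share of 13.4% given beside the lists can count such genes. The rule for named genes took the 15 with the largest ratio of summed CPM, among which were all 3 gate genes, with log2 ratios of 8.74 (Slc18a3), 8.64 (Chat) and 7.96 (Slc5a7). These had 82.7% to 84.2% of all their UMIs in the series inside the 177 cells, as the gate requires in part. Rprml, which encodes a reprimo-like membrane protein, was as restricted without being used by the gate: 83.0% of its UMIs were in starburst cells, at 298 CPM against 1.35 CPM in other GABAergic cells (log2 ratio 7.76, 4.81 to 8.54 over the libraries). Slc10a4, a transporter-like protein of cholinergic and monoaminergic vesicles, had 73.4% of its UMIs there (141 against 1.21 CPM).

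Rims1, an active zone scaffold that organizes vesicle release, was the most abundant leading gene, with 6409 UMIs and 4356 CPM against 66.0 CPM in other GABAergic cells (log2 ratio 6.04, 5.79 to 7.22). Starburst cells held 61.4% of all Rims1 UMIs although they were 177 of 26764 cells. Other release genes did not share this. Syt1, the calcium sensor of release, had a log2 ratio of 0.32, Snap25 0.04, Rab3a -0.11, Vamp2 -0.18, and the median of the 32 genes of the release list was -0.18, against -0.15 over all genes. The factors Sox2 (log2 ratio 8.46), the noncoding transcript Sox2ot (8.47), within whose span Sox2 lies so that shared reads are uncertain, and Isl1 (6.71) were also among the leading genes, although Sox2 is abundant in Muller glia and starburst cells held only 9.95% of its UMIs.

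The remaining leading genes were the insulin-like growth factor binding proteins Igfbp6 (log2 ratio 8.48, 55.9% of cells) and Igfbp7 (6.18, 95.5%), the LIM protein Csrp3 (6.72, 51.4%), the actin-bundling protein Espn (6.45, 83.1%), Megf11 (6.01, 87.0%) and Kcnk2 (5.83, 72.3%). Kcnk2 encodes a background potassium channel. Ratios varied between libraries, from 2.96 to 7.50 for Csrp3 and from 5.27 to 9.96 for Sox2. The 10 lowest ratios included those of the 3 neuropeptide genes Tac2, Tac1 and Cartpt. Cartpt, a neuropeptide precursor, had 12.2 CPM in starburst cells against 2033 CPM, Tac1 had 1 UMI in all, and Tac2 had 0 UMIs, at least 187-fold lower against a floor of 3 UMIs over the group. Lingo2 (at least 48.1-fold lower), Pantr1 (40.7), Crabp1 (36.5), Plcb1 (33.3), Lhfpl2 (31.3) and Kcnip4 (26.1) were also at 0 UMIs, with bounds computed the same way.

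**Figure D2:**
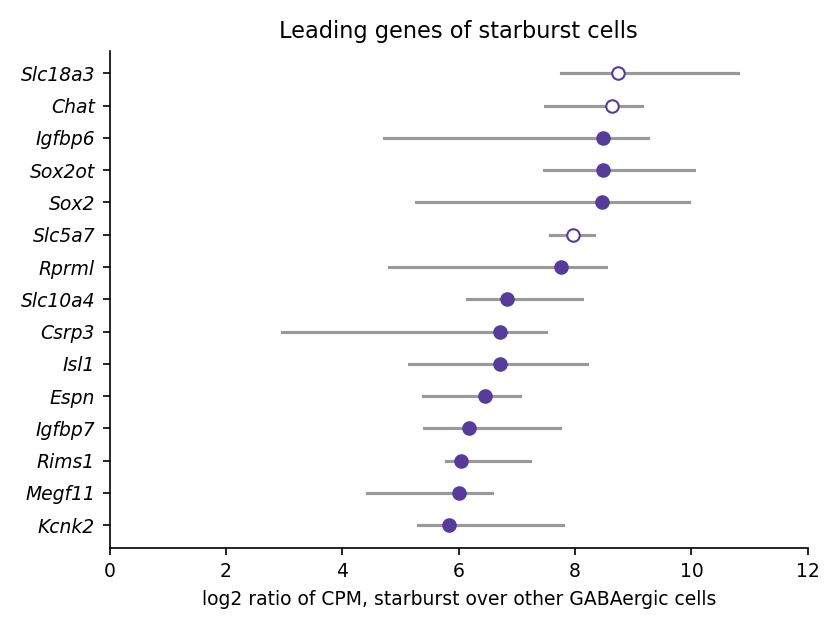
Log2 ratio of summed CPM in starburst over other GABAergic amacrine cells (x axis) for the 15 leading genes (y axis); points are ratios over all 6 libraries, lines run from the lowest to the highest library, and open points are the genes of the gate. Every line lies above 0, and Rims1 (5.79 to 7.22) and Slc5a7 (7.57 to 8.32) varied least.

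The acetylcholine pathway divided into genes enriched in starburst cells and genes shared with other cells. Prima1, which anchors acetylcholinesterase to membranes, had a log2 ratio of 2.28 and was above other GABAergic cells in 6 of 6 libraries. Ache itself, which breaks acetylcholine down, was lower in starburst cells in 6 of 6 libraries (log2 ratio -1.34), with a UMI in 18.6% of them and in 31.9% of other GABAergic cells. Chka and Chkb, the choline kinases, and Acly, which makes cytosolic acetyl-CoA, had ratios of -0.10, 0.27 and 0.01. Of the 16 pathway genes compared, 5 were higher and 2 lower in 6 of 6 libraries, against 13.4% and 6.26% of all genes, and 3 of the 5 were the gate genes, fixed by the rule.

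Among acetylcholine receptors, the muscarinic receptor gene Chrm2 led, with 110 UMIs in 50 cells (log2 ratio 1.26, above 0 in 5 of 6 libraries). The chaperone genes Tmem35a and Ric3 had 82 and 81 UMIs and ratios of -0.33 and 0.04. The nicotinic subunit genes were low: Chrnb2 had 22 UMIs, Chrna6 15, Chrnb3 8, Chrna3 3 and Chrna4 1. Of the 14 receptor and chaperone genes compared, 0 were higher and 0 lower in 6 of 6 libraries, where the shares over all genes were 13.4% and 6.26%, and 14 genes are too few to set the list apart.

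On the GABA side, transmitter genes were near the level of other GABAergic cells while some receptor subunits were far above it. Gad1 had a log2 ratio of 0.68 and the vesicular transporter Slc32a1 -0.08. The delta subunit gene Gabrd, part of extrasynaptic receptors, had a UMI in 90.4% of starburst cells against 14.7% of other GABAergic cells (ratio 3.99), and 35.6% of all its UMIs. Gabra4, an alpha subunit often paired with delta, was in 69.5% against 5.36% (ratio 4.93). Both were higher in 6 of 6 libraries. For glycine, Glra4 had 17 UMIs but a ratio of 5.54, whereas Glra2 (-2.10) was lower in 6 of 6 libraries and Glra3 had 1 UMI.

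Genes for glutamate input, excitability and wiring followed the same partial pattern. The AMPA receptor gene Gria2 was the most abundant of its list at 874 UMIs and a ratio of -0.03, while the group II metabotropic receptor genes Grm2 (2.27) and Grm3 (3.41) were higher in 6 of 6 libraries, Grm3 with 30.6% of all its UMIs. The potassium channel genes Kcnc1 (1.66), which lets neurons fire or signal rapidly, and Kcnb2 (3.14) were higher in 6 of 6 libraries, and Kcna1 (-3.06) and Kcna5 (-2.92) lower. The calcium channel genes Cacna2d1 (2.30), Cacnb3 (2.12) and Cacna1a (1.38), the last the pore of P/Q-type channels, were also higher in 6 of 6. Of the guidance genes, Cntnap2 (1.70), Tenm2 (1.83) and Plxna2 (1.84), the receptor of semaphorin 6A, were higher in 6 of 6 libraries. The purinergic channel gene P2rx2, named below by its KO values, had 74.3% of its UMIs in starburst cells.

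Fezf1 and Rnd3, genes known as marks of the ON and the OFF population, were found in separate starburst cells. Fezf1 had a UMI in 23 cells and Rnd3 in 49, and 0 cells held both, where the product of the shares gives 6.37 cells. The other 105 of the 177 cells held neither. Tenm3 had a UMI in 51 cells, of which 34 held Rnd3 (14.1 from the shares) and 0 held Fezf1 (6.63 from the shares). Thus Tenm3 was found with Rnd3 and not with Fezf1. Zfhx3 and Necab2 were chosen after their values were seen: Zfhx3, a zinc finger homeobox factor, was in 47 of 49 Rnd3 cells and 3 of 23 Fezf1 cells, and Necab2, a neuronal calcium-binding protein, in 21 of 23 Fezf1 cells and 7 of 49 Rnd3 cells.

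Further genes differed between these sides, also chosen after their values were seen among 2432 genes with at least 60 UMIs in both groups together. Chrm2 had 81 UMIs in the 49 Rnd3 cells and 0 in the 23 Fezf1 cells, Igfbp5 93 and 0, Tenm3 84 and 0, Cit 73 and 0, and the potassium channel gene Kcnk12 60 and 0. The Rnd3 cells held 502570 UMIs in all and the Fezf1 cells 207290, both summed over libraries of differing makeup, and no test was made. Gabra4 was at 609 CPM in Rnd3 cells against 116 CPM in Fezf1 cells, and P2rx2 at 191 against 62.7 CPM. In the other direction Necab2 was at 371 CPM in Fezf1 cells against 13.9 CPM in Rnd3 cells, the protein kinase C alpha gene Prkca at 236 against 39.8 CPM, the growth factor gene Ptn at 256 against 57.7 CPM, and the neuropeptide gene Npy at 1688 against 529 CPM.

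In the 105 cells with neither Fezf1 nor Rnd3, Zfhx3 and Necab2 were found together less often than the shares give, but not apart throughout. Zfhx3 was in 46 of them, Necab2 in 58 and both in 19, where the shares give 25.4. A further 20 cells held neither Zfhx3 nor Necab2, and no test was made. Tenm3 was in 12 of the 27 cells with Zfhx3 alone and in 0 of the 39 with Necab2 alone, and Chrm2 in 11 and 1. The makeup differed between libraries. Rnd3 was in 9 of 28 cells of WT P19, 25 of 73 of KO P19, 13 of 35 of WT P25, 0 of 24 of KO P25, 0 of 5 of WT P30 and 2 of 12 of KO P30. Fezf1 was in 2, 12, 4, 2, 1 and 2 cells of the same libraries. Rnd3 had no UMI in KO P25, yet Zfhx3 was in 9 of its 24 cells and Tenm3 in 3, and with 1 library per group no test was made.

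**Figure D3:**
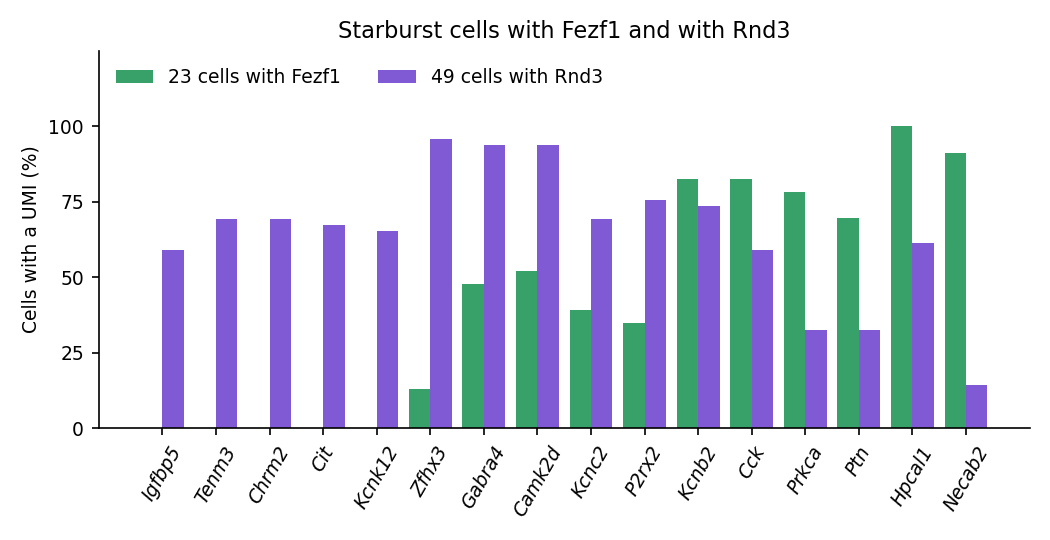
Percentage of cells with a UMI (y axis) for 16 genes (x axis) among the 23 starburst cells with Fezf1 (green) and the 49 with Rnd3 (purple), all libraries together. Igfbp5, Tenm3, Chrm2, Cit and Kcnk12 have no green bar (0 cells), and Necab2 is in 21 of 23 Fezf1 cells but 7 of 49 Rnd3 cells.

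The next question was whether the cells differed between KO and WT, which the gate did not use. Adipor1 was examined first. In WT starburst sums it stood at 68.9, 96.7 and 210 CPM at P19, P25 and P30, and in KO sums at 24.5, 42.6 and 23.2 CPM. All KO values lay below all WT values, but they rest on only 79 UMIs. The log2 fold change was -1.69 ± 0.50 (SE), with an unadjusted p of 0.0151 in limma-trend and an adjusted p of 0.838. In bulk retina Adipor1 fell from 600 ± 8.09 to 139 ± 2.46 CPM (SD, n = 4), a log2 fold change of -2.11 (edgeR adjusted p = 4.6e-13), and transcript was still detected in every KO library.

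No gene of the KO starburst cells passed the threshold. Of 7893 genes tested with limma-trend, with age in the model and 2 residual degrees of freedom, 0 (0%) had an adjusted p below 0.05, 197 (2.5%) had an unadjusted p below 0.05, and edgeR called 70. In simulated sums of this size limma-trend recovered 3% of 2-fold and 59% of 4-fold changes with 0 false calls, and edgeR 76% and 100% with 3 false calls. In that simulation a 2-fold change was thus rarely detectable by limma-trend. Only genes with 200 or more UMIs were changed there. All simulated libraries shared the same expression profile and a fixed dispersion, with no age effect and no outlier cells. These rates need not hold for genes with fewer UMIs or for the real sums. The KO libraries all lay above WT for 310 genes (3.93%) and all below for 347 (4.4%), and 0 genes had a KO effect that differed from that in other GABAergic cells (limma-trend adjusted p below 0.05; 146 unadjusted).

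The levels of the 3 gate genes within the gated cells are given as a description with no test, since the same values chose the cells. Slc5a7 was at 725, 706 and 294 CPM in WT and 862, 731 and 510 CPM in KO at P19, P25 and P30 (log2 fold change 0.36). The WT and KO ranges overlapped, and the values lay farthest apart at P30. Slc18a3 was at 604, 574 and 714 CPM in WT and 624, 700.3 and 811 CPM in KO (0.17). Chat was at 251, 290.1 and 252 CPM in WT and 183, 256 and 278 CPM in KO (-0.16; 0.06 without the condition on Slc6a9 and Aqp4). The ranges of the 2 genotypes overlapped for each of the 3 genes.

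The lists were described by counts and medians. Over the 14 tested of the 17 known starburst genes, the median log2 fold change was -0.04, against 0.00 over all genes, and 0 passed in either direction. The acetylcholine synthesis list (12 tested) had a median of -0.17, the GABA list (14 tested) 0.03, the glutamate receptor list (11 tested) -0.14, the potassium channel list (13 tested) -0.12, and the release list (28 tested) 0.03, each with 0 past the threshold. The ceramide list (18 tested) had a median of -0.56, with medians of 0.02 at P19, 0.03 at P25 and -1.04 at P30, and 1 unadjusted p below 0.05, that of Adipor1. The nuclear respiratory chain list (77 tested) had a median of 0.22. Its members were higher in KO at each age in 28 cases and lower in 1, against 15% and 11% of all genes tested. Among its most abundant members, Cox4i1 had a log2 fold change of 0.20, Cox8a 0.30 and Ndufa4 0.06, and 0 passed the threshold. In other GABAergic cells the median of this list was 0.10. In bulk retina at P30, 57 of its 81 tested members were lower in KO and 24 higher, with a median of -0.07. There 15 were lower and 2 higher with an edgeR adjusted p below 0.05, against 14.7% and 16.2% of all genes.

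Transcripts of the rod list, which belong to photoreceptors, had lower summed levels in each KO library, although no member passed in limma-trend. The rod list summed to 1329, 1002 and 3739 CPM in WT at P19, P25 and P30 and to 376, 676 and 649 CPM in KO, without overlap. In other GABAergic cells the same list ranged from 633 to 2662 CPM in WT and from 711 to 2018 CPM in KO, and the ranges overlapped. Pdc, a phototransduction regulator of photoreceptors, had a log2 fold change of -2.04 ± 0.34 (SE; limma-trend adjusted p = 0.838), Prph2 -2.54, Guca1a -2.43, Gnat1 -1.78 and Pde6g -1.77. These 5 genes were among the 10 lowest by the rule for named genes, as were Taz (-1.88), Zfp771 (-1.82), Tut4 (-1.80) and Elovl4 (-1.79). The last 4 depended much on the P30 pair. Without it their log2 fold changes were -0.62 (Taz), -0.04 (Zfp771), -0.70 (Tut4) and -0.98 (Elovl4). The 5 photoreceptor genes then ranged from -1.34 (Gnat1) to -2.74 (Guca1a). The cone list summed to 1677, 35.2 and 84.0 CPM in WT and to 23, 24.4 and 92.7 CPM in KO, with overlapping ranges, and 1 WT P19 cell held 392 UMIs of cone genes. The part of photoreceptor RNA in other KO to WT differences was not tested.

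The 10 highest genes were P2rx2 (2.12), Mindy4b-ps (2.1), Fh1 (1.84), Timm10b (1.82), Pole4 (1.76), Zfp207 (1.74), Ptpn4 (1.70), Mir670hg (1.70), Abhd17a (1.69) and Ufm1 (1.69). All 10 had 0 UMIs in WT P30, where the 5 cells gave 23806 UMIs, so these fold changes depend on the prior count. P2rx2 encodes an ATP-gated cation channel. It was at 64.8, 93.8 and 0 CPM in WT and 175, 152 and 162 CPM in KO, and every KO value lay above every WT value. Without the P30 pair its log2 fold change was 1.01 (limma-trend adjusted p = 0.0832), and edgeR gave 1.18 (adjusted p = 0.0146). Since P2rx2 was higher in cells with Rnd3, it was also read within them. In Rnd3 cells P2rx2 was at 131 CPM in WT (22 cells) and 245 CPM in KO (27 cells), and in cells without Rnd3 at 45.4 CPM in WT (46 cells) and 136 CPM in KO (82 cells), sums over libraries with no test. KO P25 and WT P30 held no Rnd3 cell.

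**Figure D4:**
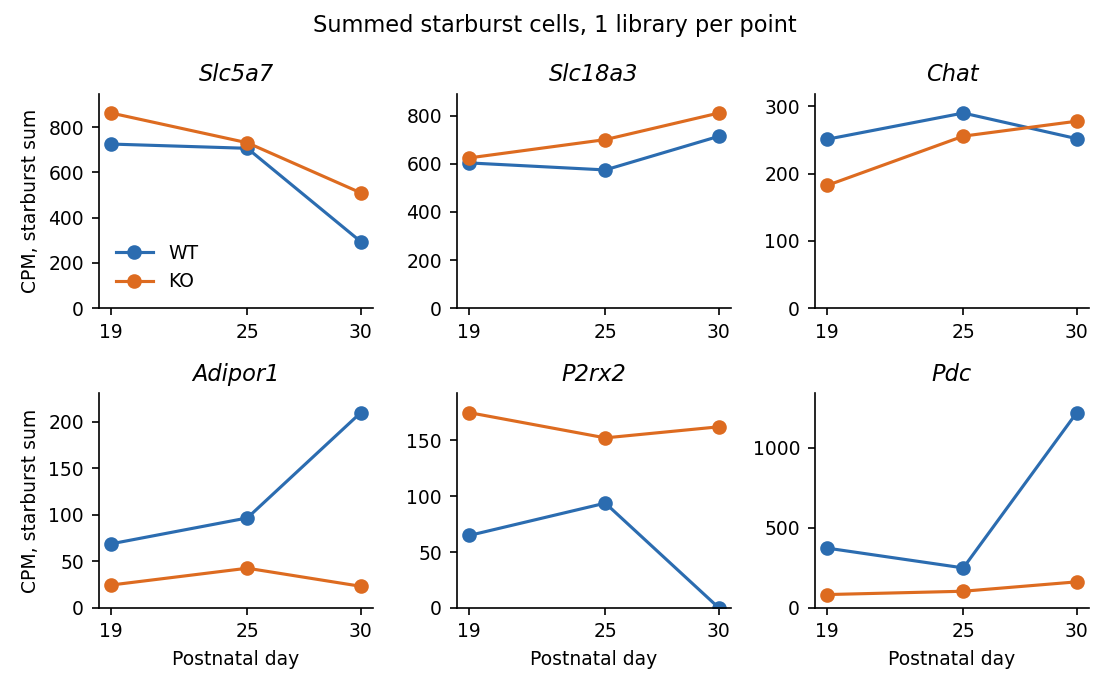
CPM of summed starburst cells (y axis, from 0) against postnatal day (x axis) for 6 genes, 1 library per point, WT blue and KO orange. For Adipor1 and Pdc the KO points lie below all WT points, for P2rx2 above them, and for Slc5a7, Slc18a3 and Chat the ranges overlap.

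With edgeR, the alternative test, 21 genes (0.266%) were higher and 49 (0.621%) lower in KO. The lower calls held 4 of the 6 rod genes and 5 of 5 cone genes, and also Xist, which had UMIs in the WT P25 sum alone (656 UMIs). The Y-linked gene Ddx3y was at 0 UMIs in WT P25 and WT P30 and detected in the other 4 sums, and the part of sex in other differences was not tested. Without the 9 cells that lacked Isl1 or held RNA of other classes, a choice made after seeing the data, edgeR called 20 genes, 5 higher (0.0659%) and 15 lower (0.198%), and all 20 were among the 70. Prph2, Pdc and Xist were among them and 0 genes of the cone list were, of which Opn1sw and Arr3 no longer reached the minimum of 20 UMIs. Of the immediate early genes 4 of 13 were called higher with all cells (Fos, Jun, Junb and Ier2), and 1 (Fos) without the 9 cells. Fos, a transcription factor gene induced by activity and by tissue handling, was at 178, 144 and 42.0 CPM in WT and 399, 250 and 139 CPM in KO, higher at each age. The neuropeptide genes Grp and Pomc were also called without the 9 cells (edgeR log2 fold change 1.79 and 1.08), whereas P2rx2 was not (0.97, adjusted p = 0.232).

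Bulk retina at P30 gave the same genes with 4 libraries per genotype. In bulk samples fewer cells of a type and less RNA per cell cannot be told apart. Of 19381 genes tested with edgeR, 1357 (7%) were higher in KO and 589 (3.04%) lower and are called DEGs here, meaning that the adjusted p was under 0.05 and the change 1.5-fold or more. Chat was at 18.6, 17.0, 17.7 and 16.8 CPM in WT and 18.6, 20.9, 17.1 and 18.2 CPM in KO. Its log2 fold change was 0.10 ± 0.07 (SE; edgeR adjusted p = 0.343), and the groups overlapped. Slc5a7 was at 18.3, 18.0, 16.2 and 19.3 CPM in WT and 15.6, 17.3, 17.3 and 14.9 CPM in KO (-0.14 ± 0.07; edgeR adjusted p = 0.183). Slc18a3 was at 6.74, 7.76, 7.01 and 6.84 CPM in WT and 6.95, 6.83, 7.34 and 8.75 CPM in KO (0.07 ± 0.10; edgeR adjusted p = 0.631). None of the 3 genes, of whose UMIs starburst cells held 82.7% to 84.2%, was called. The simulated test recovered 74% of 1.5-fold changes by adjusted p and direction alone, without the minimum fold that a DEG also needs here.

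Other leading starburst genes gave a similar picture. Of the 15, 0 were DEGs, and 3 had an adjusted p below 0.05 with smaller changes, all higher in KO (16.2% of all genes were called so without a minimum fold). These were Sox2ot (log2 fold change 0.36), Sox2 (0.25) and Igfbp7 (0.39), of whose UMIs starburst cells held 24.7%, 9.95% and 9.47%. The edgeR adjusted p of Sox2, 0.0328, was 0.0685 to 0.0987 without WT replicate 1, WT replicate 3, KO replicate 3 or KO replicate 4. Of the genes with most of their UMIs in starburst cells, Slc10a4 had 0.16 (edgeR adjusted p = 0.377), Rims1 -0.02 (0.699) and Rprml -0.67 (0.128), the last with a mean of 0.715 ± 0.226 CPM in WT libraries and 0.432 ± 0.176 CPM in KO libraries (SD, n = 4). Over the 17 known starburst genes the median was 0.09, against 0.00 over all genes, with 6 past an adjusted p below 0.05, all higher, and 0 DEGs. Of the 6, Sox2, Rnd3 and Tenm3 lost the threshold without some single libraries, and Megf10, Plxna2 and Slc12a2 were not followed in this way. Of the marks of the ON and OFF sides, Fezf1 had a log2 fold change of -0.29 (edgeR adjusted p = 0.41), Rnd3 0.21 (0.0366) and Tenm3 0.18 (0.0196). With the replicate block the edgeR adjusted p of Rnd3 was 0.0564, and without any 1 of 6 of the 8 libraries it was 0.0537 to 0.109. That of Tenm3 was 0.0524 to 0.0636 without any 1 of 3 libraries (WT replicate 1, KO replicate 1 or KO replicate 3). Starburst cells held only 2.22% of the Rnd3 and 2.70% of the Tenm3 UMIs.

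The acetylcholine genes called in bulk had few of their UMIs in starburst cells. Ache rose from 66.4 ± 4.72 to 103 ± 8.30 CPM (SD, n = 4; log2 fold change 0.63 ± 0.06, SE; edgeR adjusted p = 4.7e-06), and was the 1 DEG of the 18 synthesis and breakdown genes tested. Without KO replicate 4 its log2 fold change was 0.58, below the 1.5-fold minimum, with an adjusted p of 6.9e-06. Starburst cells held 0.906% of the Ache UMIs of the series. The choline transporter gene Slc44a1 fell by 0.38 on the log2 scale (edgeR adjusted p = 3.7e-05), less than the minimum fold. Of 18 receptor and chaperone genes tested, the nicotinic subunit gene Chrnb4 rose from 3.91 ± 1.23 to 11.6 ± 0.652 CPM (1.57; adjusted p = 5.5e-06) and Tmem35a, a chaperone of nicotinic receptors, fell from 61.2 ± 0.308 to 38.1 ± 2.06 CPM (-0.68; adjusted p = 2.1e-07). Starburst cells held 0.699% of the Chrnb4 and 1.59% of the Tmem35a UMIs, and Chrnb4 was at 32.9 to 209 CPM in the RPE libraries. No gene of the GABA list was a DEG among 26 tested.

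P2rx2 had most of its UMIs in starburst cells and was called. It was at 2.93, 3.88, 3.92 and 4.09 CPM in WT retina and 4.56, 3.69, 7.89 and 6.56 CPM in KO. The groups overlapped through KO replicate 2, but the gene was a DEG, with a log2 fold change of 0.61 ± 0.21 (SE; edgeR adjusted p = 0.0415). With the replicate number as a block it had an adjusted p of 0.0129 but a log2 fold change of 0.58, below the 1.5-fold minimum. Leaving out any WT library, KO replicate 3 or KO replicate 4 raised the adjusted p to between 0.0614 and 0.141, so that the call rests on few libraries. Mindy4b-ps, the other of the 10 highest genes concentrated in starburst cells (35.7% of its UMIs), had a bulk log2 fold change of 0.08 (edgeR adjusted p = 0.68). Fos rose in bulk by 0.84 on the log2 scale, together with 11 other immediate early genes of 23 tested that were DEGs (7% of all genes were DEGs higher in KO), and starburst cells held 0.367% of the Fos UMIs.

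**Figure D5:**
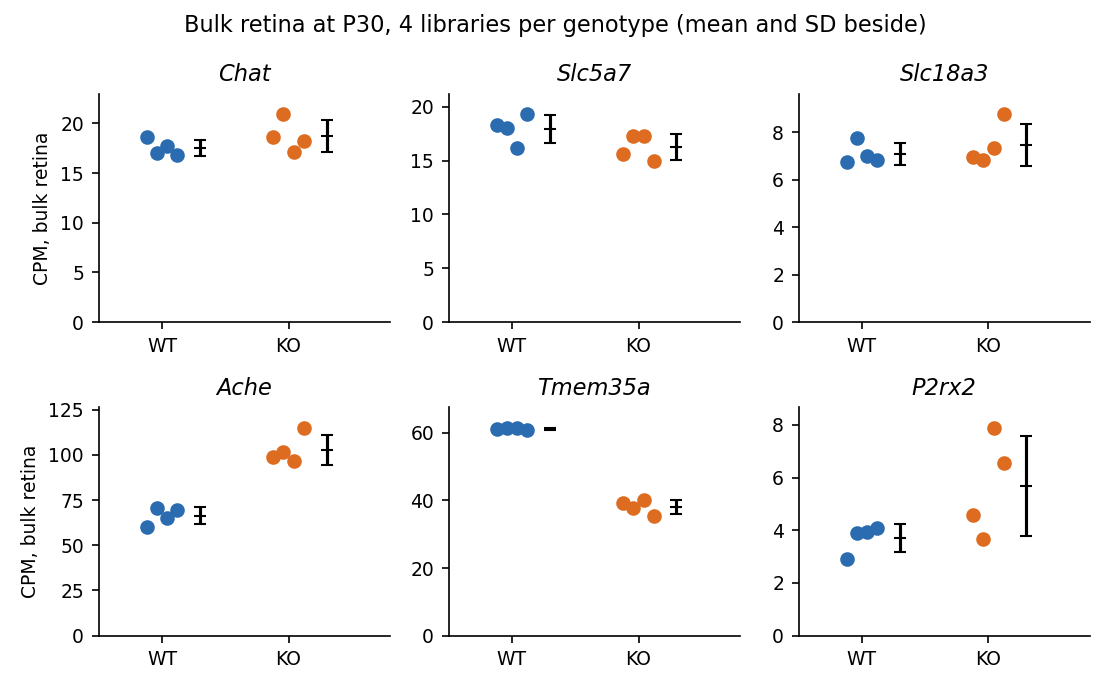
CPM in bulk retina at P30 (y axis, from 0) for 6 genes in the 4 WT (blue) and 4 KO (orange) libraries; black marks beside them are the mean and SD. Chat, Slc5a7, Slc18a3 and P2rx2 overlap between genotypes, while all KO libraries lie above WT for Ache and below WT for Tmem35a.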

How the data were processed

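Retinal cells of WT and KO mice (1 library per genotype and age, 4 retinae each) and bulk retina and RPE libraries at P30 (4 per genotype) were used; samples were grouped by the labels. The gated cells, gene lists and gates were chosen with earlier results of these data known. Deposited single-cell values were natural log values, which the authors made after scaling each cell to 10000. The submitters' processing notes name mm10, Cell Ranger 2.1 and Seurat 3.2.2. Applying 2 inverse log steps gave whole UMI counts for 100% of 46532493 values (within 0.01). In 5391 of 26764 cells these counts did not sum to the scaling total. For bulk samples the authors deposited raw counts per gene, not normalized; the notes name HOMER and edgeR 3.20.9 and give no role. GENCODE M21 held 53620 of the 53801 identifiers.

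Starburst, other GABAergic (3133 cells), glycinergic (2193) and rod (9632) gates were applied and UMIs were summed per library. Sums with at least 20 UMIs over the libraries were tested as log2 CPM with a prior count of 2 in limma 3.58.1 (limma-trend, age and genotype). Bulk retina counts were tested with edgeR 4.0.16 (quasi-likelihood, TMM, default filter) in R 4.3.3, and adjusted p-values are Benjamini-Hochberg values over all genes. DESeq2 1.42.0 was an alternative. Ratios between cell types were taken of summed CPM with 0.5 UMIs added. The text names the gate genes and Adipor1; of each list discussed the members with the most UMIs (up to 5) and those called; the 15 highest and 10 lowest against other GABAergic cells (200 UMIs or more, 6 of 6 libraries); and the 10 highest and 10 lowest in KO (100 UMIs or more, same direction at 3 ages). Some genes that meet the rule are not reported here. Genes named outside it were chosen after their values were seen.

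Bulk replicate numbers come from the labels, which do not say what they share. Deviations from the group means of libraries with the same number correlated at 0.218, 0.172, 0.157 and 0.173. The numbers were therefore also taken as pairs in an alternative fit with the block. The bulk results are from the fit without the block unless another fit is named. Tests were checked on simulated counts. Python 3.11.15 with numpy 2.4.6, scipy 1.17.1, pandas 2.3.3 and matplotlib 3.10.9 was used. RPE libraries served for levels only. The labels do not say that replicates came from separate animals; p-values then measure the spread between these samples.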

Additional observations from a re-analysis of the deposited data

Results flagged for a closer look

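The KO share of starburst cells among amacrine cells differed in direction between ages, with log2 ratios of KO over WT of 1.28 at P19, -0.36 at P25 and 1.17 at P30. With 1 library per genotype and age this difference was not tested. In bulk retina 5 of 50 groups of 4 libraries held a library apart from the other 3 by Dixon's criterion, and chance gives about 1 in 20. These were Sox2ot at 9.42 CPM and Zfhx3 at 24.3 CPM in 1 WT library each, and Megf11 at 33.7 CPM, Kcnk2 at 4.29 CPM and Chrm2 at 14.9 CPM in 1 KO library each.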

How the results depend on the processing

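In starburst cells the count of genes past the threshold, 0 by limma-trend, was 70 with edgeR, 20 with edgeR without the 9 cells lacking Isl1 or holding RNA of other classes, 8 without the P25 pair and 36 without the P30 pair; in the 10 other alternatives it was 0. Of the 24 genes followed through these alternatives, the log2 fold change of Chat alone changed sign, to 0.062 without the condition on Slc6a9 and Aqp4. The mean log2 share ratio of KO over WT moved by less than its spread over ages in every alternative, including without the P25 pair (1.12 per cell and 1.23 per amacrine cell), whereas it was -0.04 per cell without the P19 pair. In bulk retina the 1946 DEGs became 5990 with no minimum fold, and 1823 to 2023 with 1 library left out. With the replicate block there were 1979, and among the 27 bulk genes followed the pairing changed the call of P2rx2 (below the minimum fold) and took the adjusted p of Rnd3 to 0.0564, and no other. With 1 library left out, log2 fold changes ranged from -0.0072 to 0.12 for Slc18a3, from -0.022 to 0.17 for Igfbp6, from 0.40 to 0.77 for P2rx2 and from 0.58 to 0.66 for Ache. Each starburst library holds 5 to 73 cells, and the limma test on 3 against 3 sums could not detect moderate changes. Sexes and ON and OFF makeup differ between libraries and were not tested.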

Other observations

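Beyond the comparisons above, the mitochondrially encoded genes took more of the UMIs in starburst cells than in other GABAergic cells, as they did in glycinergic amacrine cells. The 13 genes summed to 51419, 50883 and 33269 CPM in the WT starburst sums at P19, P25 and P30 and to 36128, 33685 and 20141 CPM in the WT GABAergic sums, and 7 of the 13 were higher in starburst cells in 6 of 6 libraries (13.4% of all genes). The glycinergic sums were 44548, 39028 and 29487 CPM in WT and 50719, 41572 and 30968 CPM in KO, above the KO starburst sums at P19 and P30. In KO starburst sums they were at 45912, 61526 and 30485 CPM, overlapping with WT. In bulk retina all 13 had a log2 fold change below 0 in KO, 10 of them with an edgeR adjusted p below 0.05 (14.7% of all genes were lower so). Interferon and antigen presentation genes, of which 18 of 20 were DEGs higher in KO bulk retina (7% of all genes), were scarce in starburst cells. Only 4 of them reached 20 UMIs there, and H2-D1 had 29 UMIs, with a log2 fold change of 1.87 in KO (limma-trend unadjusted p = 0.012, adjusted p = 0.838).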
